A study of Mus musculus with 6 samples.

Results

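Txnip, the FOXO transcription factor genes Foxo1, Foxo3 and Foxo4, and 6 genes that are commonly used as readouts of FOXO or glucose-sensing transcription were followed in cultured mouse lung endothelial cells given hydrogen peroxide (H2O2). The 10 genes were taken by symbol: Foxo1, Foxo3, Foxo4, Txnip, Arrdc3, Arrdc4, Irs2, Sesn1, Sesn3 and Ccng2. All 10 were found among the 33006 genes of the count tables. Of these, 9 had enough reads to be among the 12924 genes tested, and Irs2 did not. The cells were primary pulmonary endothelial cells of the C57BL/6 strain, grown to 80% confluence in a medium with endothelial growth supplements. The control group received water, the H2O2 group received 300 uM H2O2, and both were collected after 6 hours, with 3 mRNA libraries per group. The labels do not say whether the libraries of a group came from separate cultures or animals, so the p-values reflect the variation from library to library, part or all of which may be technical.

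The FOXO factors are forkhead transcription factors that bind DNA in the nucleus and are held in the cytoplasm once AKT has phosphorylated them in response to insulin or growth factors. Oxidants are known to change their modifications and location, so that much of their control lies in the protein and not in the transcript. Their classical targets slow the cell cycle, arm antioxidant defence, start autophagy and feed back on insulin signalling. Txnip, the thioredoxin-interacting protein, binds reduced thioredoxin and lowers glucose uptake, and its gene is driven by FOXO factors and by the glucose-sensing pair MondoA and MLX. In endothelium, Foxo1 is known as a brake on growth and metabolism.

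The RefSeq promoter windows (GRCm38.p6, 250 bases before to 50 bases after an annotated start) were searched for 3 short motifs that these factors read. Other letters that they can bind were not searched, so a window without a match is not shown to lack a site. Windows were on hand for 9 of the 10 genes, with 12 windows in all, and not for Foxo4. The FOXO motif GTAAACA, searched on both strands, was found in 1 window each of Txnip and Sesn1, against 3.65% of all 32851 promoter windows. Of the E-box motifs bound by MondoA with MLX and by MYC-type factors, CACGTG (which reads the same on both strands) was found in Arrdc4 and Irs2 and in 7.15% of all windows. CACGAG, searched on both strands, was found in Txnip and Foxo3 and in 6.47% of all windows. The windows of Txnip, Sesn1 and Arrdc4 are printed 5′ to 3′ along each gene, because these genes hold the FOXO motif, the paired E-box motif, or the largest non-overlapping differences between the groups. Capitals mark every match to the 3 motifs.
Txnip, chr3:96557707-96558006, plus strand: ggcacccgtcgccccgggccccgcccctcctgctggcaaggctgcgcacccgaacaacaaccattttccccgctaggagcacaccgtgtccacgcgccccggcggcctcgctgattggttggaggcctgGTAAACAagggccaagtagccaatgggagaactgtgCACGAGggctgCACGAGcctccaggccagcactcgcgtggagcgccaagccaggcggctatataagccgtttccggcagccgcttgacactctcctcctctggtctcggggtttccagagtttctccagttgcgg
Sesn1, chr10:41810324-41810623, plus strand: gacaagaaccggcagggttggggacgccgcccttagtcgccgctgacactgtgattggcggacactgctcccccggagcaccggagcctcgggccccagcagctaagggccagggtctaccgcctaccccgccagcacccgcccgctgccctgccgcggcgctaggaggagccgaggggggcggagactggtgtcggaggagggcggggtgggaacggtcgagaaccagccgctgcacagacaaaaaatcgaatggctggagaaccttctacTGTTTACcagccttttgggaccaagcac
Arrdc4, chr7:68749189-68749488, minus strand: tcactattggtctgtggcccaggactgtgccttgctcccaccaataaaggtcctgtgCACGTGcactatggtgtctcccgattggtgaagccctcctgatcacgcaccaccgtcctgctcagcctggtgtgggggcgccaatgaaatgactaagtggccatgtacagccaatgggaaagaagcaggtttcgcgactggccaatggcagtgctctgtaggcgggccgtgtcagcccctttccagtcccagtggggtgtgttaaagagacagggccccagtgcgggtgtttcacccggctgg
In the Txnip window the FOXO motif began 121 bases before the start, followed by CACGAG at 85 and again at 74 bases before it, with 5 bases between both copies. Such a pair of CACGAG copies 5 bases apart, a search added after the Txnip window had been seen, was found on either strand in 1 of the 32851 windows, that of Txnip. A looser pair, with any base as the fifth letter of each copy (CACGNG), was found in 16 windows, which is 0.0487% of them. In Sesn1 the FOXO motif lay on the opposite strand (read as TGTTTAC) and began 23 bases into the transcript of the start used. A second RefSeq window of Sesn1 held none of the 3 motifs. These matches describe the letters of the windows and not binding in these cells.

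The libraries held 22455388 to 27618679 gene counts. H2O2 replicate 3 stood apart from the other libraries of its group, with 9.15 and 11.7 for the chi-square divided by its degrees of freedom over genes, against 1.63 to 2.94 for the other pairs within a group, and without it 0 of the 10 genes passed the test. Levels are given as normalised read counts (CPM), in which TMM factors bring the libraries to one scale. The endothelial markers Cdh5 (1150 ± 43.7 CPM in controls and 1200 ± 11.8 CPM with H2O2) and Pecam1 (1020 ± 12.8 and 1090 ± 8.63 CPM) were abundant in both groups, whereas Cldn5 had 2 to 12 reads per library. Summed over the 12 markers, endothelial genes took 4669 to 4750 CPM in controls and 4938 to 4981 CPM with H2O2, and 5 of 11 tested rose and 0 fell (45.5% higher, beside 9.7% of all tested genes). Its part in the values of the 10 genes was not tested, and in bulk libraries a different number of cells of a type and a different amount of RNA per cell cannot be told apart. Lung epithelial markers summed to at most 0.192 CPM in any library, with 5 of 8 at 0 reads in all. Summed fibroblast markers were 27.0 to 28.8 CPM in controls and 24.9 to 28.0 CPM with H2O2, smooth muscle and pericyte markers 5.74 to 6.84 and 5.69 to 6.81 CPM, and leukocyte markers, nearly all of it Cd68, 157.5 to 164 and 163 to 170 CPM, while the defining leukocyte marker Ptprc had 0 or 1 read. Of the tested markers of these 3 types, 0 passed the test. Short transcripts lay higher with H2O2: the median log2 fold change was 0.12 for genes under 1 kb and -0.03 for genes of 3 to 4 kb, while the longest transcripts of the 10 genes run from 2827 to 9125 bases. With an offset for length and GC content, 0 of the 9 genes passed and their median log2 fold change was 0.02.

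With H2O2, 0 of the 9 tested genes changed by edgeR's quasi-likelihood test at a Benjamini-Hochberg adjusted p under 0.05, whereas 20.5% of all tested genes did (9.7% higher and 10.8% lower). limma-voom called 0 of the 9 as well, and DESeq2's test 0 of the 8 for which it gave an adjusted p (none for Sesn3). At an unadjusted p under 0.05, edgeR had 2 of the 9 (Arrdc4 and Sesn1), limma-voom 2 and DESeq2's test 0. The median log2 fold change of the 9 genes was -0.01, and that of all 12924 tested genes was -0.00412. The groups did not overlap for 2 of the 9 genes, Sesn1 above and Arrdc4 below control, beside 34.6% of all tested genes. With 9 genes, the count of 0 is not read as a difference from that background, and the set was not tested.

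**Figure D1:**
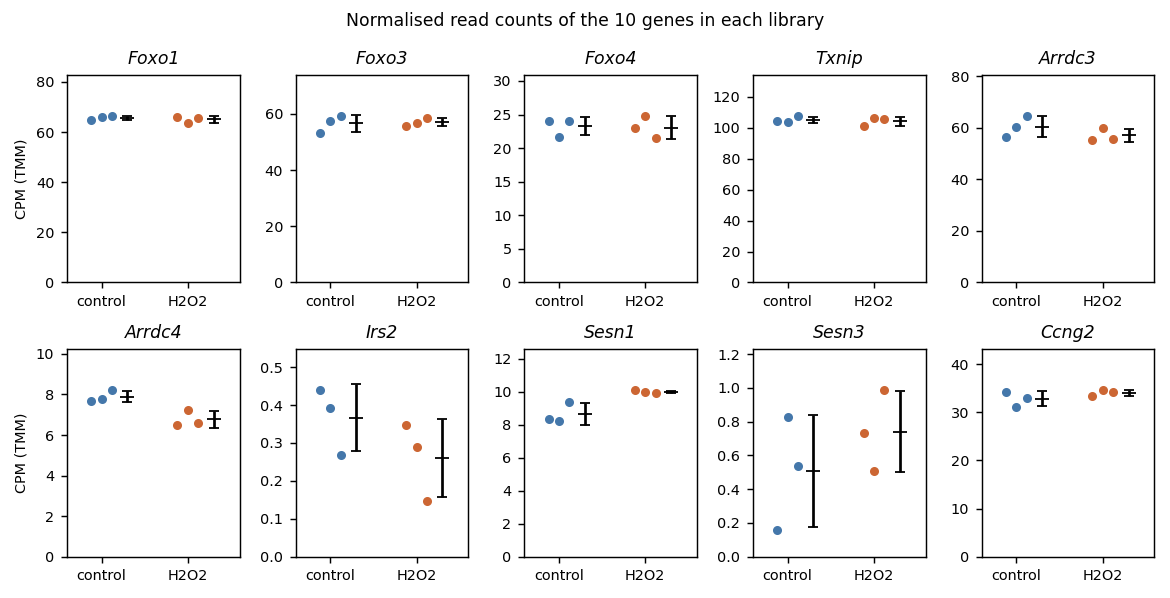
Normalised read counts (CPM with TMM factors, vertical axes from 0) of the 10 genes in each library: blue points are the 3 control libraries, orange points the 3 H2O2 libraries, and black bars the mean ± SD. Foxo1, Foxo3, Foxo4 and Txnip have overlapping groups, Sesn1 lies higher and Arrdc4 lower in all 3 H2O2 libraries, and Irs2 and Sesn3 are below 1 CPM throughout.

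The transcripts of the 3 FOXO factors did not pass the test. The widest of their 95% intervals, that of Foxo4, ran from 0.904-fold to 1.09-fold of control. Each difference is the log2 fold change of H2O2 over control from the same edgeR fit, with its standard error (SE) and 95% interval. Foxo1, on chromosome 3 (52268336 to 52353221, plus strand, GRCm38), stood at 64.8, 66.0 and 66.3 CPM in the control libraries and at 66.1, 63.6 and 65.7 CPM with H2O2. All 6 libraries lay within 3 CPM of each other, and the groups overlapped. The log2 fold change of Foxo1 was -0.01 (SE 0.0386; interval -0.09 to 0.07; adjusted p = 0.871, edgeR), so that the interval runs from 0.938-fold to 1.05-fold. Its annotated exons are 7.78% overlapped by Gm20402 on the opposite strand, for which 0 reads were counted in each library.

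Foxo3, on chromosome 10 (42181841 to 42276755, minus strand), stood at 53.3, 57.5 and 59.2 CPM in controls and at 55.8, 56.8 and 58.5 CPM with H2O2. The H2O2 libraries fell inside the range of the controls. Its log2 fold change was 0.01 (SE 0.0438; interval -0.08 to 0.10; adjusted p = 0.897, edgeR). Foxo4, on the X chromosome (101254528 to 101260873, plus strand), stood at 24.1, 21.7 and 24.1 CPM in controls and at 23.0, 24.8 and 21.5 CPM with H2O2. Again the groups overlapped, and the log2 fold change of -0.01 (SE 0.0646) had an interval of -0.14 to 0.12 (adjusted p = 0.924, edgeR). Foxo6, the family member best known from brain, had 0 to 2 reads per library and was not tested.

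**Figure D2:**
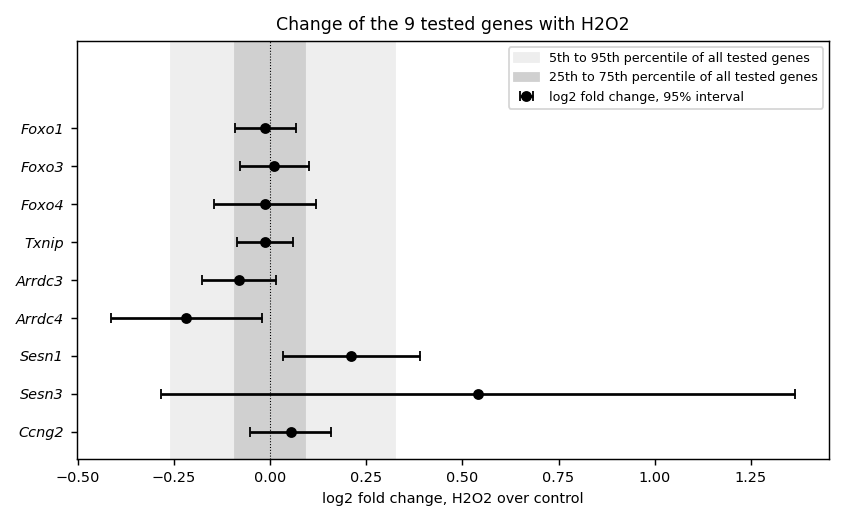
Log2 fold change of H2O2 over control for the 9 tested genes (points) with 95% intervals (bars); the shaded bands hold the 25th to 75th and the 5th to 95th percentile of all 12924 tested genes. The intervals of Foxo1, Foxo3, Foxo4 and Txnip span 0 within 0.15 on the log2 scale, and that of Sesn3 runs from -0.28 to 1.36.

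Txnip had the most reads of the 10 genes, 2400 to 2924 per library, and the smallest SE. It lies on chromosome 3 (96557957 to 96561883, plus strand, longest transcript of 8 exons). Its level was 104.4, 103.6 and 107.5 CPM in controls and 100.9, 106.0 and 105.7 CPM with H2O2. The groups overlapped, and the coefficient of variation was 1.97% in controls and 2.72% with H2O2, close to the 1.93% that counting error alone gives at this depth. The log2 fold change of Txnip was -0.01 (SE 0.0353; interval -0.09 to 0.06; adjusted p = 0.85, edgeR), an interval from 0.943-fold to 1.04-fold. Of all tested genes, 7.85% had a log2 fold change no larger in size than that of Txnip. The gene Gm15441 runs on the opposite strand and covers 19.4% of the exon bases of Txnip. Gm15441 had 14, 2 and 6 reads in controls and 13, 11 and 13 with H2O2, and it did not pass the test (log2 fold change 0.59, adjusted p = 0.431, edgeR). The strand setting of the counting was not given in the sources used here, so reads from the shared stretch cannot be assigned to either gene with certainty.

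The alpha-arrestin genes Arrdc3 and Arrdc4 are the nearest relatives of Txnip in the set, and both encode adaptors that bring ubiquitin ligases to membrane proteins. Arrdc3, on chromosome 13 (80883384 to 80896042, plus strand), stood at 56.5, 60.2 and 64.6 CPM in controls and at 55.4, 60.1 and 55.7 CPM with H2O2. The groups overlapped, since H2O2 replicate 2 lay near the middle of the controls. The log2 fold change of Arrdc3 was -0.08 (SE 0.0470; interval -0.18 to 0.02; adjusted p = 0.252, edgeR). Without control replicate 3 it was -0.03, and without control replicate 1 it was -0.12 (adjusted p = 0.0763, edgeR).

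Arrdc4, a MondoA target like Txnip, lies on chromosome 7 (68736995 to 68749241, minus strand). It stood at 7.70, 7.78 and 8.20 CPM in controls and at 6.51, 7.25 and 6.57 CPM with H2O2. Each H2O2 library was below each control library, which also held for 18.2% of all tested genes. The log2 fold change of -0.22 (SE 0.0955; interval -0.41 to -0.02) had an unadjusted p of 0.0315 and did not pass the adjustment over all genes (adjusted p = 0.115, edgeR). Arrdc4 had 169 to 200 reads per library, so that counting error alone gives a coefficient of variation of 7.31%. The observed values within the groups, 3.42% in controls and 6.07% with H2O2, were below this. Whether Arrdc4 and Txnip differed from each other in their response was not tested.

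The sestrins are stress-induced proteins that restrain mTORC1 through GATOR2 and AMPK, and Sesn1 is a target shared by FOXO factors and p53. Sesn1, on chromosome 10 (41809935 to 41908424, plus strand), stood at 8.33, 8.25 and 9.41 CPM in controls and at 10.1, 9.97 and 9.96 CPM with H2O2. All 3 H2O2 libraries were above all controls, as for 16.5% of all tested genes, and control replicate 3 lay nearest to them. The mean was 8.66 ± 0.646 CPM in controls and 10.01 ± 0.0718 CPM with H2O2 (SD, n = 3 each). Counting error alone gives a coefficient of variation of 6.46% at this depth, against 7.46% in controls and 0.717% with H2O2. The small SD with H2O2 lies below counting error and is not a measure of precision. The log2 fold change of 0.21 (SE 0.0866; interval 0.03 to 0.39) had an unadjusted p of 0.0219 and did not pass (adjusted p = 0.0881, edgeR). The adjusted p of Sesn1 was 0.0539 to 0.25 over the 16 alternatives and was lowest with the offset for transcript length and GC content.

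Sesn3, on chromosome 9 (14275067 to 14333101, plus strand), was close to the limit of detection with 4, 21 and 12 reads in controls and 19, 14 and 27 with H2O2. These were 0.160, 0.825 and 0.538 CPM and 0.732, 0.507 and 0.985 CPM, and the groups overlapped. The log2 fold change of 0.54 (SE 0.400) had an interval of -0.28 to 1.36 (adjusted p = 0.382, edgeR), from 0.822-fold to 2.58-fold. The value rested on single libraries, since it was 0.11 without control replicate 1, 0.28 without H2O2 replicate 3 and 1.12 without control replicate 2.

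Ccng2 encodes cyclin G2, an atypical cyclin that accompanies cell cycle exit. On chromosome 5 (93267257 to 93276231, plus strand), it stood at 34.3, 31.1 and 33.1 CPM in controls and at 33.4, 34.5 and 34.3 CPM with H2O2. The groups overlapped, and the log2 fold change was 0.05 (SE 0.0510; interval -0.05 to 0.16; adjusted p = 0.507, edgeR). Irs2, the insulin receptor substrate that links the receptor to PI3K, lies on chromosome 8 (10984681 to 11008458, minus strand). It had 11, 10 and 6 reads in controls and 9, 8 and 4 with H2O2, which is 0.439, 0.393 and 0.269 CPM and 0.347, 0.290 and 0.146 CPM. The groups overlapped. In a fit without a filter on low counts the log2 fold change of Irs2 was -0.50 (interval -1.51 to 0.52; adjusted p = 0.646, edgeR), so its response was not measurable at this depth.

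Levels can be compared between the 10 genes once the exon length is taken into account. On the scale of CPM per kb of annotated exon (GENCODE M21), Txnip was the highest with a mean of 33.5 over the 6 libraries, and 86.9% of 12807 tested genes with a length were at or below it. Arrdc3 followed at 9.37 and Foxo1 at 7.55, with no overlap between the libraries of these 3 genes. Foxo3 (7.51), Foxo4 (6.65) and Ccng2 (6.13) came next on this scale, and from Foxo1 down to Ccng2 each gene's library values overlapped with those of the next. Sesn1 (2.34) and Arrdc4 (1.82) were separate from their neighbours in level. Irs2 (0.0496) and Sesn3 (0.0409) overlapped with each other, and fewer than 1% of the tested genes had a level per kb as low. The 3 FOXO factors lay near the middle of the tested genes, with 53.1%, 52.9% and 49.8% of them at or below Foxo1, Foxo3 and Foxo4. With the longest transcript as the length, Foxo3 stood at 8.30 and Foxo1 at 7.55 CPM per kb, which turned their order. The same length also put Ccng2 (7.37) above Foxo4 (7.33) and Sesn3 (0.0684) above Irs2 (0.0496), and raised Arrdc3 to 14.2.

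**Figure D3:**
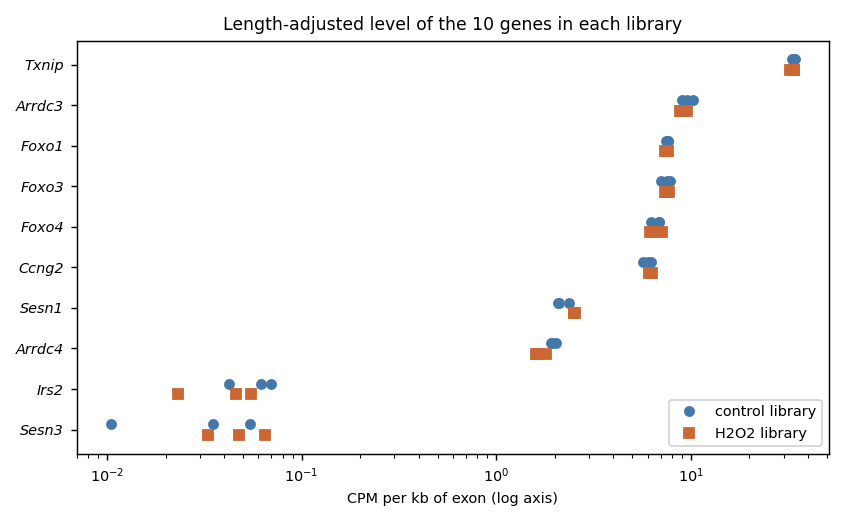
Level of the 10 genes in each library as CPM per kb of annotated exon on a log axis: circles are control libraries and squares H2O2 libraries. Txnip stands alone at 32.3 to 34.4, Foxo1, Foxo3, Foxo4 and Ccng2 lie between 5.71 and 7.82, and Irs2 and Sesn3 lie below 0.07.

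Upstream of the FOXO factors, 3 of 28 tested genes of the insulin, PI3K and AKT route fell and 0 rose, with a median log2 fold change of -0.01. The share of falls was 10.7%, beside 10.8% of all tested genes. This list and the other related lists were chosen with earlier results of these data known, so their shares are not independent of the data. Inpp5d, the lipid phosphatase SHIP that removes the signal made by PI3K, fell from 112 ± 0.559 to 98.6 ± 0.658 CPM (SD, n = 3 each), a log2 fold change of -0.18 (SE 0.0337; adjusted p = 0.00029, edgeR). Sgk1, a kinase that phosphorylates FOXO factors at AKT sites, fell from 66.9 ± 1.37 to 60.8 ± 2.69 CPM, and Ywhag, one of the adaptors that retain phosphorylated FOXO in the cytoplasm, from 417 ± 7.82 to 391 ± 8.03 CPM. Ywhaz, the most abundant gene of this list that did not pass, stood at 888 ± 10.4 and 911 ± 9.13 CPM. Irs1 had 2 to 9 reads per library and was not tested, so that both insulin receptor substrates were near the limit of detection. The falls numbered 1 without control replicate 2, without control replicate 3 and without H2O2 replicate 1, and the calls of Sgk1 and Ywhag ended in each of these fits and without H2O2 replicate 3 (adjusted p up to 0.0891 and 0.162, edgeR). Ywhag was also not called with upper-quartile factors or with the length and GC offset, with or without the replicate block. With upper-quartile factors 3 genes of the list rose in place of 0.

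Among enzymes that modify FOXO factors and their partners, 2 of 23 tested genes rose and 2 fell (median -0.02), which is 17.4% called beside 20.5% of all tested genes. Stub1, the ubiquitin ligase CHIP, rose from 32.8 ± 1.35 to 38.3 ± 1.65 CPM, a log2 fold change of 0.23 (SE 0.0508; adjusted p = 0.0018, edgeR), and Cdk2, a cell cycle kinase that can phosphorylate Foxo1, from 67.6 ± 4.07 to 74.3 ± 2.67 CPM. The deacetylase gene Sirt2 fell from 105 ± 1.61 to 96.8 ± 2.55 CPM. The other fall was that of Mdm2 (-0.12), named after its value was seen. Ctnnb1, the beta-catenin gene and the most abundant that did not pass, stood at 1450 ± 33.1 and 1390 ± 30.3 CPM. The call of Stub1 held in each alternative. That of Cdk2 ended without control replicate 2, control replicate 3 or H2O2 replicate 1, and that of Sirt2 without control replicate 1, control replicate 2, H2O2 replicate 1 or H2O2 replicate 2. Mdm2 was not called by DESeq2's test or without control replicate 2, control replicate 3, H2O2 replicate 1 or H2O2 replicate 2, so that without control replicate 2 or H2O2 replicate 1 the list had 0 falls and 1 rise.

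Other FOXO targets were mostly lower where they changed: of 37 tested, 1 rose and 11 fell (32.4% called, against 20.5% of all tested genes), with a median log2 fold change of -0.04. This difference in shares was not tested. Cited2, a transcriptional co-regulator, fell from 64.6 ± 2.79 to 49.2 ± 2.81 CPM, a log2 fold change of -0.39 (SE 0.0458; adjusted p = 4.4e-07, edgeR). Gadd45a, a stress gene that FOXO factors share with p53, fell from 27.6 ± 1.77 to 19.8 ± 1.45 CPM (-0.48, SE 0.0648), and Ddb1, a subunit of a DNA damage ubiquitin ligase, from 684 ± 12.2 to 605 ± 16.8 CPM (-0.18, SE 0.0281). All 3 calls held in each of the 16 alternatives. S1pr1, the endothelial sphingosine 1-phosphate receptor and the most abundant target that did not pass, stood at 532 ± 6.99 and 545 ± 14.7 CPM.

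Further falls, named after their values were seen, were those of Bcl6 (-0.27), Bbc3 (-0.26), Bnip3 (-0.27), Angpt2 (-0.24), Gabarapl1 (-0.20), Klf6 (-0.18), Trib1 (-0.14) and Cat (-0.10) on the log2 scale. The call of Cat (adjusted p up to 0.239) ended with each other scaling factor, with the length and GC offset, with the stricter filter, in the DESeq2 fit, and without control replicate 2, control replicate 3, H2O2 replicate 1 or H2O2 replicate 2. That of Bbc3 ended by DESeq2's test and without control replicate 2 or H2O2 replicate 2, that of Bcl6 without control replicate 1 or H2O2 replicate 1, and that of Trib1 without control replicate 2. Bnip3, Angpt2, Gabarapl1 and Klf6 passed in each alternative. The one rise was that of Pik3ip1, an inhibitor of PI3K, from 9.58 ± 0.272 to 11.3 ± 0.465 CPM (0.24, SE 0.0809; adjusted p = 0.033, edgeR). DESeq2's test did not call the rise of Pik3ip1, and it was lost without control replicate 2, control replicate 3, H2O2 replicate 1 or H2O2 replicate 3. The cell cycle inhibitor gene Cdkn1b (-0.03), the pro-apoptotic Bcl2l11 (0.04), the endothelial factor Klf2 (-0.06), the superoxide dismutase Sod2 (-0.04) and the third sestrin, Sesn2 (-0.04), did not pass and were also chosen after their values were seen. The liver targets G6pc and Igfbp1 had 0 reads in every library, and Fasl, Trim63, Ppargc1a and Pck1 were too low to be tested. Several of these genes, among them Gadd45a, Bbc3, Cdkn1a and Sesn2, are p53 targets too, so the list is not limited to genes under FOXO control alone.

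**Figure D4:**
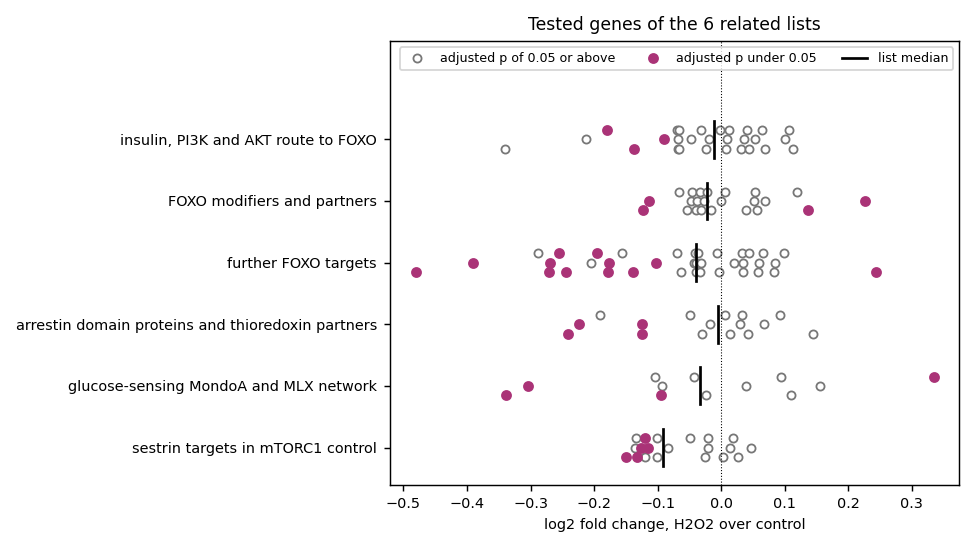
Log2 fold change of H2O2 over control for each tested gene of 6 related lists; filled points have an adjusted p under 0.05 in edgeR's test, open points do not, and black lines are list medians. Filled points lie mostly to the left of 0, with 11 falls and 1 rise among the further FOXO targets. The mTORC1 control genes, labelled as sestrin targets in mTORC1 control, had 5 falls and 0 rises.

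Around Txnip, 4 of 16 tested genes of the thioredoxin and arrestin list fell and 0 rose (median -0.01), which is 25% lower beside 10.8% of all tested genes. Slc2a1, the glucose transporter that Txnip helps to remove from the cell surface, fell from 144 ± 5.28 to 123 ± 3.76 CPM, a log2 fold change of -0.22 (SE 0.0354; adjusted p = 3.6e-05, edgeR). Nlrp3, the inflammasome sensor, fell from 21.7 ± 0.528 to 18.4 ± 1.21 CPM, and thioredoxin reductase 1 (Txnrd1) from 658 ± 20.7 to 604 ± 12.1 CPM. These 3 calls held in each alternative. The remaining fall was that of Nedd4l (-0.12), named after its value was seen. It was not called with upper-quartile factors, with library size only, by DESeq2's test, or without control replicate 2, control replicate 3, H2O2 replicate 1 or H2O2 replicate 2 (adjusted p up to 0.258). Thioredoxin itself, Txn1, the partner of Txnip and also named after its value was seen, stood at 389 ± 10.1 and 390 ± 5.21 CPM. Nedd4, the most abundant that did not pass, stood at 1450 ± 23.7 and 1420 ± 56.6 CPM. Without control replicate 1, 1 gene of this list rose in place of 0.

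In the MondoA and MLX network, 3 of 12 tested genes fell and 1 rose (median -0.03), which is 33.3% called beside 20.5% of all tested genes. Hk2, the hexokinase that makes the sugar phosphate sensed by MondoA, fell from 191 ± 0.88 to 151 ± 2.96 CPM (log2 fold change -0.34, SE 0.0307; adjusted p = 5.2e-09, edgeR). Myc, which competes for the same DNA motif, fell from 77.7 ± 0.397 to 62.9 ± 2.29 CPM (-0.30, SE 0.0389). Mxd3, a MAX network repressor, rose from 17.9 ± 1.03 to 22.6 ± 1.04 CPM (0.33, SE 0.0646). The other fall, that of Tkt (-0.10), was named after its value was seen and was lost with the length and GC offset, with or without the replicate block, and without control replicate 2, control replicate 3 or H2O2 replicate 1. MondoA itself, Mlxip, stood at 48.1 ± 0.982 and 44.8 ± 3.22 CPM and its partner Mlx at 23.9 ± 0.632 and 25.5 ± 0.352 CPM; neither passed (adjusted p = 0.14 and 0.26, edgeR), and both are named after their values were seen. Max, the most abundant that did not pass, stood at 78.7 ± 1.75 and 77.4 ± 1.11 CPM.

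Downstream of the sestrins, 5 of 20 tested genes of the mTORC1 control list fell and 0 rose, with a median log2 fold change of -0.09. The share of falls was 25%, beside 10.8% of all tested genes, and the difference was not tested. Rragc and Rraga, the Rag GTPases that recruit mTORC1 to the lysosome, fell from 160 ± 4.63 to 144 ± 5.69 CPM and from 94.9 ± 1.35 to 86.9 ± 1.63 CPM. Rptor, the raptor subunit of mTORC1, fell from 121 ± 4.69 to 111 ± 0.94 CPM (log2 fold change -0.12, SE 0.0352; adjusted p = 0.015, edgeR). The other falls, named after their values were seen, were those of Tsc2 (-0.13) and Rheb (-0.12). Both were lost without control replicate 2, control replicate 3 or H2O2 replicate 1, Tsc2 also with the length and GC offset, and Rheb also with upper-quartile factors, by DESeq2's test and without H2O2 replicate 2. Rragc passed in each alternative. Sec13, a GATOR2 subunit and the most abundant that did not pass, stood at 116 ± 3.74 and 112 ± 1.77 CPM. Leaving out control replicate 3 or H2O2 replicate 1 reduced the falls to 1, that of Rragc, so that Rraga and Rptor were not called there. The falls numbered 3 with the offset for transcript length and GC content, so that Tsc2 was not the only call lost there. Over the 6 lists, 4 of 136 tested genes rose (2.94%, beside 9.7% of all tested genes) and 28 fell (20.6%, beside 10.8%). These differences in shares were not tested, and the lists were chosen with earlier results of these data known. The counts were 8 and 24 with upper-quartile factors, 2 and 18 without control replicate 2 or control replicate 3, and 3 and 16 without H2O2 replicate 1.

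**Figure D5:**
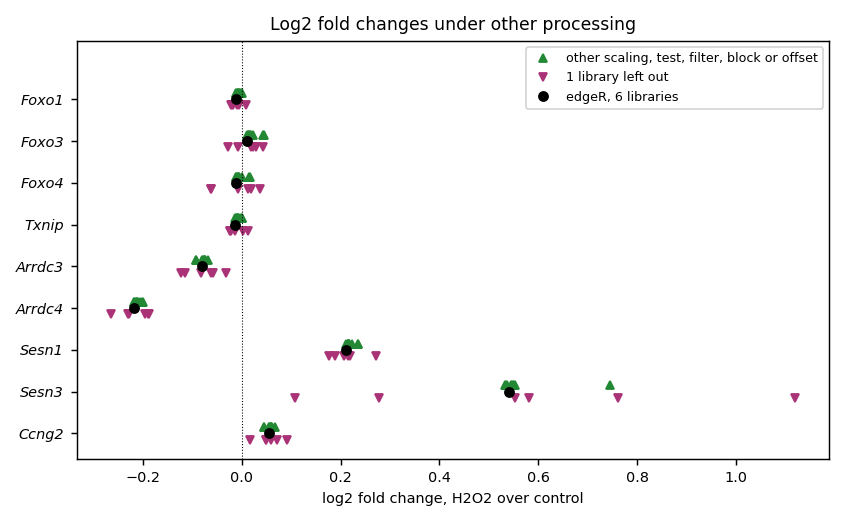
Log2 fold change of the 9 tested genes in the edgeR fit with all 6 libraries (black circles), with another scaling, test, filter, replicate block or length offset (green triangles pointing up) and with 1 library left out (purple triangles pointing down). Foxo1, Foxo3, Foxo4 and Txnip scatter on both sides of 0 within 0.07, Arrdc3 and Arrdc4 stay below 0, and Sesn1, Sesn3 and Ccng2 stay above it.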

How the data were processed

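Whole-number read counts per gene symbol were deposited by the authors, 1 table per library. The submitters' processing notes name mm10 as the genome and list HTSeq, STAR 2.5.3, cutadapt, bcl2fastq 2.17.1.14 and DESeq2. Neither the gene annotation nor the strand setting is given in the sources used here. The 5 HTSeq summary classes (19.1% to 20.0% of the reads in each table) were left out.

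Of 33006 genes, 12924 passed edgeR's filterByExpr and were compared in R 4.3.3 with the quasi-likelihood F-test of edgeR 4.0.16, using TMM factors and a model with treatment alone. The Benjamini-Hochberg adjustment ran over all tested genes, and an adjusted p under 0.05 counted as a change. The SE is the size of the log2 fold change divided by the root of the F statistic. The 10 genes and the 6 related lists were chosen with earlier results of these data known. From each list, up to 3 passing genes with the smallest p and the most abundant gene that did not pass are named. Genes with a pattern like that of a passing member were to be named, and as 0 members passed, none were. Lengths, positions and overlaps came from GENCODE M21, of the same assembly as mm10, and 99.0% of tested genes had a length and GC content.

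No libraries of a group were identical or within sampling noise of each other. The test was checked on simulated data in which far fewer genes changed than were called here. It called 8 of 50 genes changed 1.1-fold and 32 of 49 changed 1.2-fold. At 1.5-fold it called 44 of 50, at 2-fold 47 of 50, and of the unchanged genes 9 of 12621. Alternatives covered other scaling factors, DESeq2 1.42.0, limma-voom (limma 3.58.1), a looser and a stricter filter for low counts, a block for replicate number, an offset for length and GC content (loess, span 0.3), and each library left out in turn.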

Additional observations from a re-analysis of the deposited data

How the results depend on the processing

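In each of the 16 alternatives, 0 of the 10 genes that were tested there were called in either direction. Irs2 was tested in 5 of them, and Sesn3 had no adjusted p in DESeq2's test. Of the 9 tested genes, Arrdc3, Arrdc4, Sesn1, Sesn3 and Ccng2 kept the sign of their log2 fold change in every alternative that tested them (Sesn3 was not tested with the stricter filter). Foxo1, Foxo3, Foxo4 and Txnip, all near 0, changed sign in some. With upper-quartile factors Foxo1 was at 0.00013 and Foxo4 at 5.0e-05, and Foxo4 was at 0.0156 with the length and GC offset and at 0.0160 with the offset and the replicate block. With 1 library left out, Foxo1 ran from -0.0209 to 0.00903, Foxo3 from -0.0277 to 0.0437, Foxo4 from -0.0633 to 0.0375 and Txnip from -0.0238 to 0.0116. Over all tested genes, the counts of 1254 higher and 1395 lower genes ran from 891 to 1178 and from 926 to 1313 with 1 library left out. Over the 6 lists, 4 genes were higher and 28 lower, 2 to 5 and 16 to 28 with 1 library left out, and 8 were higher with upper-quartile factors. Fits on fewer libraries have less power, and for the other settings the cause was not tested.

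In the single lists, the count of rises was 0 to 3 in the PI3K list, 0 to 2 among further FOXO targets, 1 to 2 among the modifiers and 0 to 1 in the thioredoxin list over all alternatives, and the count of falls was 1 to 4 in the PI3K list, 0 to 3 among the modifiers and 1 to 5 in the sestrin list. With the longest transcript as length, levels per kb were 37.0 for Txnip, 14.2 for Arrdc3, 8.30 for Foxo3, 7.37 for Ccng2, 7.33 for Foxo4 and 0.0684 for Sesn3. Replicate numbers did not pair the libraries, with correlations of the deviations of 0.00224, 0.0299 and -0.0261 between same-numbered libraries. With the replicate block, 1294 genes were higher and 1444 lower. Depth limits Irs2 and Sesn3, with at most 27 reads per library.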
